A study of Mus musculus with 16 samples.

Results

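Expression of 9 genes of nitric oxide and reactive oxygen chemistry was followed in sorted mouse Paneth cells: Nos2, Ass1, Arg2, Duox2, Duoxa2, Nox1, Noxo1, Sod1 and Sod2. They were chosen by name, as genes of nitric oxide synthesis, arginine supply, NADPH oxidases and superoxide dismutases, and are 9 of the 55414 genes in the deposited count table. All 9 passed the filter on low counts and are among the 11809 genes tested. Paneth cells sit at the bottom of small intestinal crypts and secrete antimicrobial peptides and lysozyme. C57BL/6J mice were first given PBS or DEX and, 1 h later, PBS or tumour necrosis factor (TNF), and Paneth cells were taken 3 h after that second injection. DEX is not spelled out in the sources used here, and neither the doses nor the age of the mice were given there for this experiment. The 16 bulk RNA-seq libraries form 4 groups of 4, described in the labels as biological replicates, and each name gives the earlier injection before the later one. DEX+TNF mice received both agents, DEX+PBS and PBS+TNF mice a single one, and PBS+PBS mice are the control for both.

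Nitric oxide synthases make nitric oxide from arginine with tetrahydrobiopterin as a cofactor, arginases use up the same arginine, and argininosuccinate synthase helps to remake it from citrulline. NADPH oxidases pass electrons across a membrane to oxygen. Nox1 yields superoxide, Duox2 yields hydrogen peroxide, and each needs partner proteins to work. Superoxide dismutases turn superoxide into hydrogen peroxide. In the gut epithelium these oxidases face the lumen, and inducible nitric oxide synthase is known from inflamed mucosa.

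The libraries held 7286307 to 15832111 counts. Values are CPM, counts scaled to a library of 1000000, after correction by TMM factors for library composition, which ran from 0.418 to 1.502. Lyz1, the lysozyme gene of Paneth cells, lay between 41288 and 222948 normalized CPM in all 16 libraries. Nfkbia, an inhibitor gene that NF-kB signalling induces, was used to check the TNF label. It lay between 277 and 337 normalized CPM in PBS+TNF and between 15.6 and 27.3 in the 8 libraries without TNF. In DEX+TNF it was 330 in replicate 1, 382 in replicate 2, 28.3 in replicate 3 and 41.0 in replicate 4. The libraries labelled DEX+TNF replicates 3 and 4 thus stood near the libraries without TNF for this gene, and the log2 fold changes of the 9 genes between DEX+TNF and other groups are given with and without them. A lower level in bulk RNA can come from fewer cells of a type or from less RNA per cell, and these cannot be told apart here.

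Promoter windows are shown for the oxidase and synthase genes that the later comparisons turn on, because only part of them carries a match to the motif of NF-kB, through which TNF acts on many genes. The 250 bases before the start of the canonical transcript were read from GRCm39 for all 9 genes and searched on both strands for a kappa B site, the recognition sequence of NF-kB. The windows of Nos2 and Nox1 held one, and those of the other 7 genes did not. Of 21757 windows of the same length, 7.63% held a match. Both windows are printed 5′ to 3′ on the strand of the gene with the match in capitals, and the windows of Duox2 and Duoxa2 follow for comparison. The Nos2 window is chr11:78811363-78811612 on the plus strand, with the match at -46 to -37 from the start. The Nox1 window is chrX:133012604-133012853 on the minus strand, with the match at -91 to -82, read on the opposite strand. The Duox2 window is chr2:122128931-122129180 on the minus strand and the Duoxa2 window chr2:122129130-122129379 on the plus strand.
Nos2: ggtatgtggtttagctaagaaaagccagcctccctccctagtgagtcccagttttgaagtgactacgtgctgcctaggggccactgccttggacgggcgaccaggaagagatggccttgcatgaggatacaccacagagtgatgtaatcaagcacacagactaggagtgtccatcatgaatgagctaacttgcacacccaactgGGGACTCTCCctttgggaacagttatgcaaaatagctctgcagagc
Nox1: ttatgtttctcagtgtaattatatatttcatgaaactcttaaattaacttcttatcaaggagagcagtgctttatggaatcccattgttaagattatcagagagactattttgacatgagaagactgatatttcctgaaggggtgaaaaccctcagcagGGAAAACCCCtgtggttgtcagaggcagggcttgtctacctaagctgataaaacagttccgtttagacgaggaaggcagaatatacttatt
Duox2: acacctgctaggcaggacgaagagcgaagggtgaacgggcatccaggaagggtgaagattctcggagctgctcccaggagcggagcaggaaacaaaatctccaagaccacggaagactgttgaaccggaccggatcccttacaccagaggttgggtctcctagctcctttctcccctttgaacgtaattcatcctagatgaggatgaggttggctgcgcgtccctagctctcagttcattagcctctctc
Duoxa2: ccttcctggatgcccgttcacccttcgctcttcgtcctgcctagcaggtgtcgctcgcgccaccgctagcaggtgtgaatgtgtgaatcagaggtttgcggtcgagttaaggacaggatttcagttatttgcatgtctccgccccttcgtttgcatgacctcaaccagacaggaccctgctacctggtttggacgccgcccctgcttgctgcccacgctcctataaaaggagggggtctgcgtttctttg

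Other motifs were sought in the same 9 windows, which are too few to tell from the shares over all windows. The glucocorticoid receptor motif GNACANNNTGTNC was in none of the 9 windows (0.299% of all windows) and the interferon motif TTTCNNTTTC in none (3.32%). The STAT motif TTCNNNGAA was in the Sod2 window (7.7%), and TATAAA in the Duoxa2 window at -29 to -24 (11.9%). No motif overlapped another. A match is a string of letters and not a measured binding site, and its absence says only that these letters are not in the window.

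The first comparison asked what TNF did without DEX. In PBS+TNF, 5 of the 9 genes rose over PBS+PBS and none fell: Nos2, the inducible nitric oxide synthase, Duox2 and its maturation factor Duoxa2, and Nox1 and its organizer Noxo1. The rises ran from 3.14-fold for Noxo1 to 489-fold for Nos2 by the quasi-likelihood test of edgeR, with Benjamini-Hochberg adjustment over all 11809 genes and an adjusted p under 0.05 as the threshold. Ass1, Arg2, Sod1 and Sod2 did not pass it. Over all genes, 7.15% were called higher and 5.35% lower in this comparison. All 5 called genes had every PBS+TNF library above every PBS+PBS library, which 10.8% of all tested genes did. The median log2 fold change was 1.65 over the 9 genes and -0.03 over all genes tested. Of the markers of other epithelial cells, those of enterocytes separated the 2 groups: 9 genes summed to 203 to 403 plain CPM in PBS+PBS and to 37.2 to 167 in PBS+TNF, with Fabp1 and Apoa1 at 0 in 4 of the 16 libraries and Apoa4 and Alpi in 8 and Lct in 10. The 6 goblet cell genes summed to 8439 to 18659 and to 14624 to 21920, and the 5 tuft cell genes to 3.21 to 54.8 and to 4.84 to 183, and for both lists the groups overlapped. Their part in the results was not tested.

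**Figure D1:**
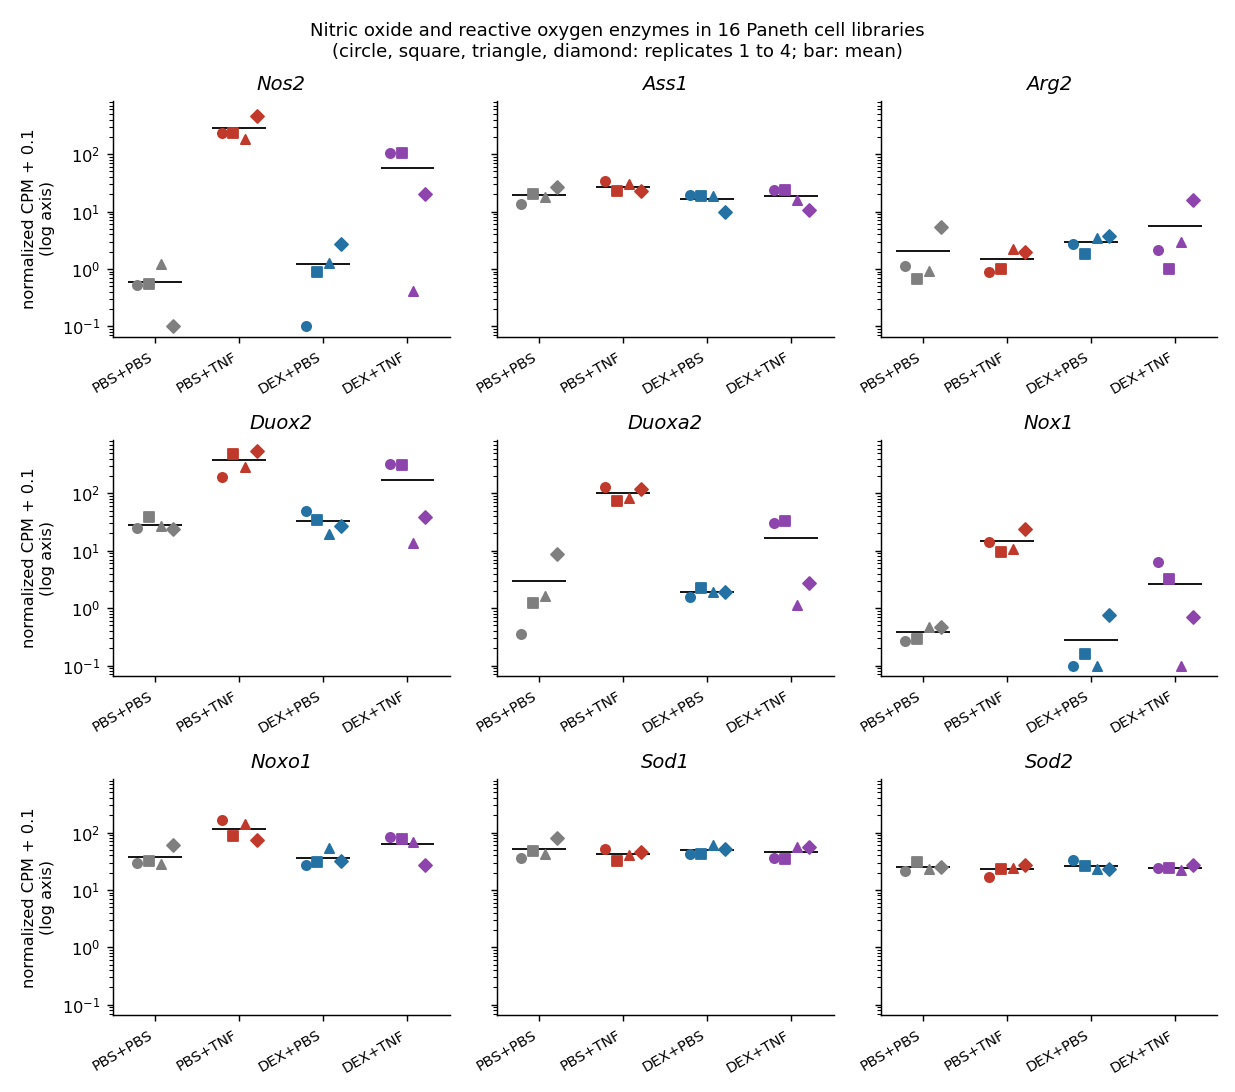
Normalized CPM plus 0.1 (log axis) of each of the 9 genes in the 16 libraries, by injection group; symbols mark replicates 1 to 4 and bars the group means. Nos2, Duox2, Duoxa2, Nox1 and Noxo1 are higher in all 4 PBS+TNF libraries than in any PBS+PBS library, while the DEX+TNF libraries spread widely.

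Nos2 (ENSMUSG00000020826, GRCm39 chr11:78811613-78851080, plus strand, 27 exons) went from near absence to a high level. The PBS+PBS libraries had 0.428, 0.447, 1.12 and 0 normalized CPM (replicates 1 to 4), from 33 counts in all. The 0 in replicate 4 allows up to 0.377 normalized CPM, which is what 3 counts were worth in that library. With TNF the values were 233, 238, 181 and 466, from 17154 counts. The lowest TNF library thus lay far above the highest control, and the log2 fold change was 8.93 ± 1.32 (SE, n = 4 per group, adjusted p = 0.000976 by edgeR).

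Macrophages and neutrophils are a well-known source of Nos2, so their markers were counted in the same libraries. Of 11 leukocyte genes, Ly6g, S100a8, S100a9 and Cd3e were at 0 in all 16 libraries, and Adgre1, Csf1r and Cd79a at 0 in 15. Ptprc, which encodes the leukocyte antigen CD45, had 687 counts and reached 31.5 plain CPM, and it was at 0 in 5 libraries. Cd68 was at 0 in 4 libraries and Itgam in 9, with 39 and 18 counts. In PBS+TNF Ptprc was at 0 in replicates 1 and 2 and at 4.24 and 5.64 plain CPM in replicates 3 and 4. The 10 genes other than Lyz2 summed to 0.0804 to 6.001 plain CPM in PBS+TNF and 0 to 1.47 in PBS+PBS. Ptprc made up most of that sum in PBS+TNF replicates 3 and 4. Nos2 lay at 233 and 238 normalized CPM in the 2 PBS+TNF libraries without a Ptprc count and at 181 and 466 in the others. PBS+TNF replicates 1 and 2 held 1 and 3 counts of Cd68, and replicate 2 held 2 of Itgam. With Lyz2, a close relative of Lyz1, the sum was 41.0 to 42.8 in PBS+TNF and 41.3 to 106 in PBS+PBS. Cybb, the NADPH oxidase subunit of phagocytes, had no count in any library, which allows up to 0.0145 plain CPM over all 16 together. The part of leukocytes in the Nos2 level was not tested.

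Of the genes that remake or use up arginine, neither passed the test. Ass1 (ENSMUSG00000076441, chr2:31352181-31410862, plus strand) makes argininosuccinate from citrulline. Its PBS+PBS libraries had 13.2, 20.2, 17.5 and 26.1 normalized CPM and its PBS+TNF libraries 33.3, 22.7, 29.6 and 22.5. The groups overlapped, and the log2 fold change of 0.49 ± 0.29 (SE) did not pass the test (adjusted p = 0.307 by edgeR). Its 95% interval (normal approximation) ran from -0.07 to 1.05. Of the Ass1 transcript, 70.4% matched the pseudogene Gm5424 at 97% identity or more, and Gm5424 held 17 counts in all libraries together.

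Arg2 (ENSMUSG00000021125, chr12:79177524-79203075, plus strand), the mitochondrial arginase, was low. It had 1.03, 0.574, 0.801 and 5.28 normalized CPM in PBS+PBS and 0.771, 0.904, 2.11 and 1.83 in PBS+TNF. The control range spanned the TNF range, with a log2 fold change of -0.33 ± 0.81 (SE, adjusted p = 0.860 by edgeR). Without PBS+PBS replicate 4 the value was 0.84, so 1 library set the sign. Of its transcript, 40.1% matched Gm48780 and Vti1b, both on the opposite strand. Vti1b had a log2 fold change of -0.07 (adjusted p = 0.941 by edgeR).

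Duox2 (ENSMUSG00000068452, chr2:122109728-122128930, minus strand, 33 exons) and Duoxa2 (ENSMUSG00000027225, chr2:122129380-122133366, plus strand, 6 exons) lie head to head with 449 bases between their starts. Duox2 is the oxidase, and Duoxa2 carries it out of the endoplasmic reticulum. Duox2 had 25.02, 38.3, 26.5 and 23.9 normalized CPM in PBS+PBS and 190, 479, 287 and 552 in PBS+TNF, a log2 fold change of 3.73 ± 0.74 (SE, adjusted p = 0.00426 by edgeR). Duoxa2 had 0.257, 1.15, 1.55 and 8.67 in PBS+PBS and 128, 74.5, 82.8 and 120 in PBS+TNF, a log2 fold change of 5.22 ± 0.99 (SE, adjusted p = 0.00351 by edgeR). Duox2 was thus present before TNF while its partner was scarce, except in PBS+PBS replicate 4. Per kilobase of the canonical transcript, the ratio of Duox2 to Duoxa2 was 0.718 to 25.4 in PBS+PBS and 0.388 to 1.68 in PBS+TNF. Duoxa1, which overlaps 42.9% of the Duoxa2 transcript on the other strand, held 33 counts in all, and no other gene matched Duox2.

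Nox1 (ENSMUSG00000031257, chrX:132987170-133122705, minus strand) is the oxidase that Noxo1 organizes. Its PBS+PBS libraries had 0.171, 0.191, 0.373 and 0.377 normalized CPM, from 15 counts, and its PBS+TNF libraries 14.1, 9.28, 10.8 and 23.5, from 854 counts. The log2 fold change was 5.66 ± 1.00 (SE, adjusted p = 0.00220 by edgeR), with no overlap between the groups. Cstf2, which covers 22.0% of its transcript on the opposite strand, was at 15.5 ± 1.27 (SD, n = 4) normalized CPM in PBS+PBS and 20.1 ± 1.77 (SD, n = 4) in PBS+TNF (adjusted p = 0.190 by edgeR).

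Noxo1 (ENSMUSG00000019320, chr17:24914682-24919504, plus strand) was already expressed without TNF. It had 29.6, 31.5, 28.2 and 60.04 normalized CPM in PBS+PBS and 167, 87.2, 138 and 75.5 in PBS+TNF. The lowest TNF library lay above the highest control, and the log2 fold change was 1.65 ± 0.37 (SE, adjusted p = 0.00821 by edgeR). Its counts are uncertain, because 78.3% of its transcript also lies in exons of Gfer and Tbl3 on the opposite strand and the use of strand in counting is not given in the sources used here. Neither of these rose: Gfer had a log2 fold change of 0.28 (adjusted p = 0.525 by edgeR), and Tbl3 fell by 1.55 on the log2 scale (adjusted p = 0.00723 by edgeR).

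The superoxide dismutases of the cytosol and of mitochondria showed no change that passed the test. Sod1 (ENSMUSG00000022982, chr16:90017408-90027657, plus strand) is the copper-zinc enzyme of the cytosol. It had 35.6, 48.1, 42.9 and 79.8 normalized CPM in PBS+PBS and 50.9, 31.7, 39.9 and 46.4 in PBS+TNF. Its log2 fold change was -0.29 ± 0.26 (SE, adjusted p = 0.543 by edgeR), with a 95% interval from -0.81 to 0.23. Sod2 (ENSMUSG00000006818, chr17:13224095-13259591, plus strand) is the manganese enzyme of mitochondria, and is known in many cells as a gene that TNF induces. Here it had 21.1, 30.1, 22.7 and 24.6 normalized CPM in PBS+PBS and 16.8, 23.4, 23.8 and 27.1 in PBS+TNF. The ranges overlapped almost fully, and the log2 fold change was -0.11 ± 0.19 (SE, adjusted p = 0.790 by edgeR). The 95% interval of the Sod2 difference, -0.49 to 0.27, leaves out a rise of the size seen for Noxo1.

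**Figure D2:**
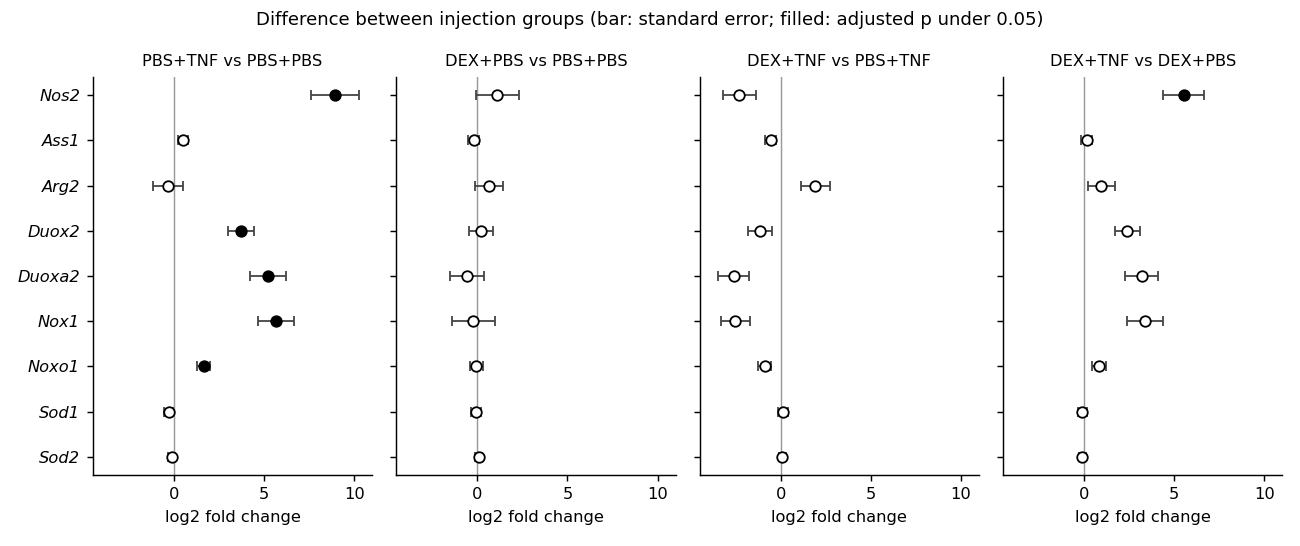
Log2 fold change of the 9 genes (rows) in the 4 comparisons between injection groups (panels), with the standard error as a bar; filled points passed an adjusted p of 0.05 in edgeR's quasi-likelihood test. In PBS+TNF vs PBS+PBS 5 points are filled, in DEX+TNF vs DEX+PBS 1, and in the other panels none.

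Levels per kilobase of canonical transcript allow the genes to be set beside each other. In PBS+PBS the order of mean levels was Noxo1 (14.9 normalized CPM per kilobase), Ass1 (10.9), Sod1 (9.71), Duox2 (4.65), Sod2 (4.12), Duoxa2 (1.82), Arg2 (1.32), Nos2 (0.119) and Nox1 (0.109). Of neighbours in this order, only Sod1 and Duox2 were further apart than their SDs. In PBS+TNF Nos2 (66.7 ± 30.3, SD, n = 4), Duoxa2 (63.5 ± 16.6), Duox2 (61.7 ± 27.4) and Noxo1 (46.8 ± 17.2) came first, and their ranges of 1 SD overlapped. Ass1 (15.4) followed at a distance larger than the SDs, then Sod1 (7.94), Nox1 (5.62), Sod2 (3.81) and Arg2 (0.965). Nox1 thus remained below its organizer Noxo1 in both groups. Sod1 is uncertain on this scale, because its canonical transcript of 5315 bases is long for a coding length of 462 bases. Of this transcript, 83.8% matched Gm8566 and Scaf4, the latter on the opposite strand. Sod2 is uncertain too, with a canonical transcript of 5983 bases for a coding length of 666. So is Noxo1, since 78.3% of its transcript matched other genes.

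The second comparison asked what DEX did without TNF. None of the 9 genes was called in DEX+PBS against PBS+PBS, and all groups overlapped. Over all genes 0.00847% were called, which is 1 gene, and 224 had an unadjusted p under 0.05. Nos2 had 0, 0.784, 1.15 and 2.60 normalized CPM in DEX+PBS, a log2 fold change of 1.11 ± 1.20 (SE, adjusted p = 1 by edgeR). Duox2 had 49.6, 34.4, 19.8 and 26.4, and its log2 fold change of 0.19 had a 95% interval from -1.12 to 1.51. Duoxa2 lay between 1.46 and 2.11, Noxo1 between 26.8 and 54.6, and Nox1 at 0 in replicates 1 and 3 and at most 0.663. Intervals were narrower for the steadier genes, from -0.29 to 0.47 for Sod2, from -0.59 to 0.45 for Sod1 and from -0.78 to 0.36 for Ass1. For Nos2 and Nox1, with 74 and 14 counts in the group, a change of severalfold was not detectable at this depth.

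The third comparison asked whether DEX given before TNF altered the TNF levels. No member was called in DEX+TNF against PBS+TNF, where 0.339% of all genes were called and 1408 had an unadjusted p under 0.05. Nos2, Duoxa2 and Nox1 were nevertheless lower in every DEX+TNF library than in any PBS+TNF library, which held for 2.91% of all genes. For these genes, as for Nfkbia, replicates 1 and 2 of DEX+TNF lay well above replicates 3 and 4. Marker sums separated the same groups: the goblet cell genes summed to 9267 to 14577 plain CPM in DEX+TNF and 14624 to 21920 in PBS+TNF, and the 11 leukocyte genes to 63.3 to 76.5 and 41.0 to 42.8. Most of the leukocyte sum was Lyz2 except in DEX+TNF replicate 4, where Ptprc gave 31.5 and Lyz2 30.01. The part of these markers in the differences was not tested.

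Nos2 had 103, 106, 0.306 and 20.2 normalized CPM in DEX+TNF (replicates 1 to 4), against 181 to 466 in PBS+TNF. Replicates 1 and 2 thus held 36.9% and 37.8% of the PBS+TNF mean, replicate 3 held 0.11% and replicate 4 held 7.22%. The log2 fold change was -2.29 ± 0.94 (SE, adjusted p = 0.336 by edgeR), and -1.42 (adjusted p = 0.504 by edgeR) with replicates 3 and 4 left out. Duoxa2 had 30.4, 32.4, 1.02 and 2.69, a log2 fold change of -2.60 ± 0.86 (SE, adjusted p = 0.213 by edgeR), or -1.68 without those 2 libraries (adjusted p = 0.478 by edgeR). Nox1 had 6.29, 3.15, 0 and 0.598, a log2 fold change of -2.52 ± 0.81 (SE, adjusted p = 0.196 by edgeR), or -1.61 without them (adjusted p = 0.451 by edgeR). In all 3 genes the libraries with high Nfkbia were also the ones with the higher values, and they too lay below the PBS+TNF range.

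For Duox2 and Noxo1, replicates 1 and 2 of DEX+TNF reached the PBS+TNF range. Duox2 had 329, 309, 13.4 and 38.3 normalized CPM in DEX+TNF. Replicates 1 and 2 fell inside the PBS+TNF range, at 87.4% and 81.9% of its mean, and replicates 3 and 4 below it. The log2 fold change was -1.13 ± 0.67 (SE, adjusted p = 0.541 by edgeR) and -0.24 (adjusted p = 0.811 by edgeR) without replicates 3 and 4. Noxo1 had 82.9, 75.6, 68.8 and 27.4, with the first 2 libraries at the low end of the PBS+TNF range. Its log2 fold change was -0.88 ± 0.36 (SE, adjusted p = 0.337 by edgeR) and -0.56 (adjusted p = 0.587 by edgeR) without those libraries. The ratio of Duox2 to Duoxa2 per kilobase was 2.48 to 3.71 in the 4 DEX+TNF libraries, above the 0.388 to 1.68 of PBS+TNF. This ratio was picked after its values were seen and is given without a test.

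**Figure D3:**
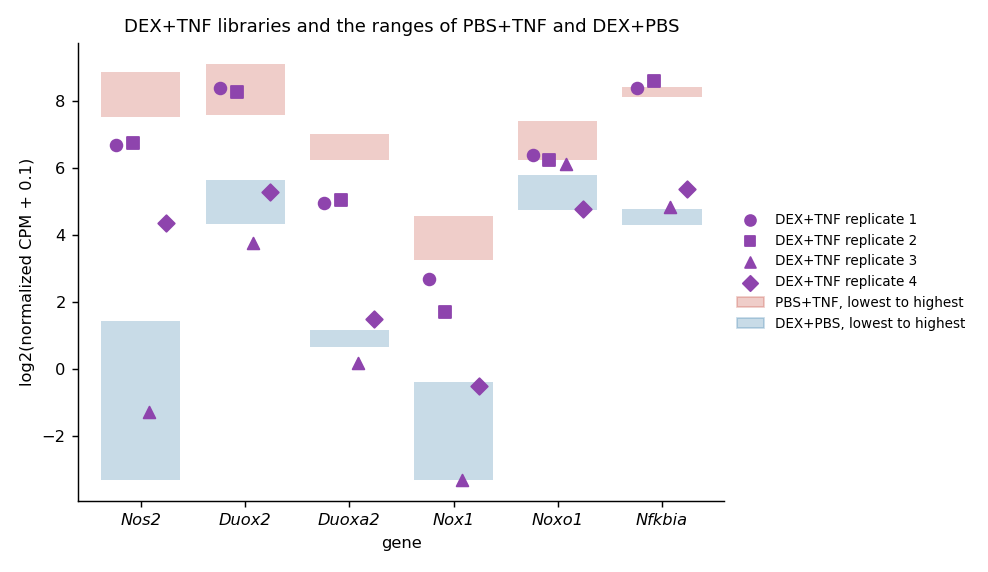
Log2 of normalized CPM plus 0.1 for the 5 genes that rose with TNF and for Nfkbia: symbols are the 4 DEX+TNF libraries, red boxes span PBS+TNF and blue boxes span DEX+PBS from the lowest to the highest library. Replicates 1 and 2 lie below the red box for Nos2, Duoxa2 and Nox1 and inside it for Duox2 and Noxo1, while replicates 3 and 4 lie below it for all 6 genes.

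Of the other members, Arg2 had 2.02, 0.889, 2.86 and 16.1 normalized CPM in DEX+TNF. Its log2 fold change against PBS+TNF was 1.93 ± 0.79 (SE, adjusted p = 0.334 by edgeR), and 0.01 without replicates 3 and 4 (adjusted p = 0.999 by edgeR). Replicate 4 also had the highest plain CPM sum of enterocyte markers (958, against 116 to 149 in the other 3) and of tuft cell markers (857, against 0.16 to 117), and their part in the Arg2 value was not tested. Ass1 had 23.6, 23.4, 16.0 and 10.5, a log2 fold change of -0.56 ± 0.29 (SE, adjusted p = 0.471 by edgeR), or -0.20 without replicates 3 and 4 (adjusted p = 0.796 by edgeR). Sod1 lay between 34.5 and 57.0 and Sod2 between 22.0 and 26.7, with log2 fold changes of 0.12 ± 0.26 (SE, adjusted p = 0.903 by edgeR) and 0.09 ± 0.19 (SE, adjusted p = 0.908 by edgeR). Without the 2 libraries these were -0.27 for Sod1 (adjusted p = 0.716 by edgeR) and 0.08 for Sod2 (adjusted p = 0.904 by edgeR). Neither dismutase separated the 2 groups.

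The fourth comparison asked what TNF did after DEX, with DEX+PBS as the control. Nos2 was the 1 member called, with a log2 fold change of 5.53 ± 1.14 (SE, n = 4 per group, adjusted p = 0.0491 by edgeR), against 0.322% of all genes called higher. Its groups overlapped, since DEX+TNF replicate 3 lay within the DEX+PBS range. The call rests on the settings: it held in 8 of 26 alternative analyses, with adjusted p from 2.75e-05 to 0.407, and was lost when any library other than DEX+TNF replicates 3 and 4 was left out. Duox2 (log2 fold change 2.41 ± 0.70, SE), Duoxa2 (3.19 ± 0.94) and Nox1 (3.37 ± 0.99) did not pass, with edgeR adjusted p values of 0.172, 0.173 and 0.173, and neither did Noxo1 (0.83 ± 0.36, adjusted p = 0.424 by edgeR).

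With DEX+TNF replicates 3 and 4 left out, 4 members were called in that comparison, all higher, against 7.2% of all genes called higher. These were Nos2 (log2 fold change 6.38, adjusted p = 2.75e-05 by edgeR), Duox2 (3.30, adjusted p = 3.24e-05 by edgeR), Duoxa2 (4.11, adjusted p = 0.00105 by edgeR) and Nox1 (4.24, adjusted p = 0.000758 by edgeR). Noxo1 had 1.15 (adjusted p = 0.0519 by edgeR). The 2 libraries with a high Nfkbia level thus showed a TNF response of these genes after DEX as well. The choice of those libraries rests on a gene that TNF induces, so the values describe them and not the whole group. They were also the most alike of all pairs within a group, which bears on the small adjusted p values. Ass1 (log2 fold change 0.14 with all libraries and 0.50 without replicates 3 and 4), Arg2 (0.95 and -0.97), Sod1 (-0.09 and -0.48) and Sod2 (-0.11 and -0.12) were called in neither analysis.

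The interaction, which compares the TNF response of DEX-treated mice with that of mice given PBS first, was below 0 for the 5 genes that rose with TNF. These 5 were chosen because PBS+TNF was high, and that group enters the interaction with a minus sign. Their shared sign is thus in part set by the choice. Among the other members the log2 difference was 1.28 for Arg2, 0.20 for Sod1, -0.35 for Ass1 and -0.0049 for Sod2. Without DEX+TNF replicates 3 and 4 it was -0.65 for Arg2, -0.20 for Sod1, 0.011 for Ass1 and -0.014 for Sod2. None of the 5 passed the test, nor did any of all genes (0% called, 642 with an unadjusted p under 0.05). The log2 difference was -3.40 ± 1.51 (SE, adjusted p = 0.884 by edgeR) for Nos2, -2.29 for Nox1, -2.03 for Duoxa2, -1.32 for Duox2 and -0.82 for Noxo1. Without DEX+TNF replicates 3 and 4 the values were -2.53 for Nos2 (adjusted p = 0.825 by edgeR), -1.42 for Nox1, -1.14 for Duoxa2, -0.43 for Duox2 and -0.50 for Noxo1, and the last 4 had an edgeR adjusted p of 0.972. With all libraries, the intervals of the 4 genes other than Nos2 include 0, and that of Nos2 ran from -6.36 to -0.44 before adjustment. With 4 libraries per group and the spread within DEX+TNF, a difference of this size could not be told from 0 after adjustment.

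Further genes of the same pathways were examined as a list of 51, of which 39 had enough counts to be tested. In PBS+TNF against PBS+PBS 5 were called higher and 4 lower, and 30 did not pass, with a median log2 fold change of 0.05, against 7.15% of all genes called higher and 5.35% lower. Among 21 tested genes of nitric oxide synthesis and arginine supply, 2 rose and 2 fell. Among 6 tested NADPH oxidase genes 2 rose, and among 12 tested genes of superoxide and peroxide removal 1 rose and 2 fell. Nothing particular to the list is read from these counts.

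The gene with the largest rise was Gch1, the first enzyme of tetrahydrobiopterin synthesis and so of the Nos2 cofactor. It had 0.514, 0.0638, 0.213 and 0.502 normalized CPM in PBS+PBS and 9.63, 7.17, 6.26 and 8.72 in PBS+TNF. The log2 fold change was 4.70 ± 0.66 (SE, adjusted p = 0.000663 by edgeR), with no overlap. In DEX+TNF it had 6.45, 6.79, 1.22 and 1.50, and it was the 1 gene of the list called against DEX+PBS (log2 fold change 3.31 ± 0.63, SE, adjusted p = 0.0456 by edgeR, and 4.03 without replicates 3 and 4, adjusted p = 4.26e-05 by edgeR). Replicates 1 and 2 thus lay near the PBS+TNF libraries and replicates 3 and 4 lower, as for Duox2. Nostrin, which binds nitric oxide synthase in endothelium, rose by 2.30 on the log2 scale (adjusted p = 0.00230 by edgeR).

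Cyba encodes the membrane partner that stabilizes Nox1, and Cybc1 a chaperone of such oxidases. Cyba had 8.57, 11.4, 11.9 and 30.9 normalized CPM in PBS+PBS and 130, 49.2, 79.8 and 50.1 in PBS+TNF, a log2 fold change of 2.31 ± 0.51 (SE, adjusted p = 0.00743 by edgeR). Cybc1 rose by 1.11 (adjusted p = 0.0209 by edgeR) and was higher in all 4 TNF libraries than in any control. Thus the oxidase Nox1, its organizer and its membrane partner rose together. The other partners were named after their values were seen: Noxa1, the activator, had a log2 fold change of 0.76 (adjusted p = 0.186 by edgeR), and Rac1, the GTPase, 0.57 (adjusted p = 0.106 by edgeR).

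Of genes that supply arginine or remove oxidants, Slc7a2, a transporter of cationic amino acids, fell by 1.77 on the log2 scale (adjusted p = 0.0288 by edgeR). Its groups overlapped, and it rests on 179 counts in PBS+PBS and 55 in PBS+TNF. Txnrd1, the cytosolic thioredoxin reductase, rose by 0.86 (adjusted p = 0.0419 by edgeR). The remaining genes that fell were Ccs, which loads copper into Sod1 (-0.86, adjusted p = 0.0471 by edgeR), the catalase gene Cat (-0.78, adjusted p = 0.0103 by edgeR), and Aldh18a1, of proline and ornithine synthesis (-0.65, adjusted p = 0.0457 by edgeR), which were named after their values were seen. The groups overlapped for Aldh18a1 but not for Ccs or Cat. Cat had 30.3 to 42.1 normalized CPM in PBS+PBS and 18.4 to 24.96 in PBS+TNF. These decreases were small beside the rises of the oxidases. Nos3, Nox3, Nox4 and Cybb had no count in any library, so Nos2 was the only nitric oxide synthase above a trace, since Nos1 held 2 counts. No gene of the list was called in DEX+PBS against PBS+PBS, in DEX+TNF against PBS+TNF or in the interaction.

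**Figure D4:**
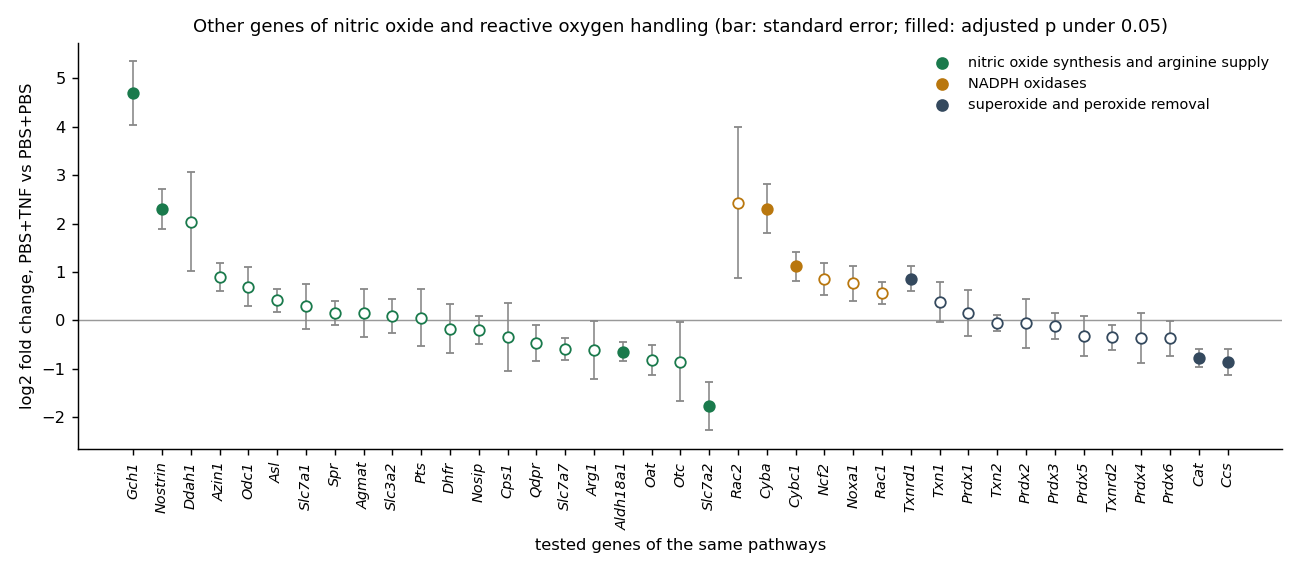
Log2 fold change in PBS+TNF vs PBS+PBS of the 39 tested genes of the same pathways, with the standard error as a bar and colours for the 3 gene groups; filled points passed an adjusted p of 0.05 in edgeR's quasi-likelihood test. Gch1 is highest at 4.70 and Slc7a2 lowest at -1.77.

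The genes whose pattern was most like that of Nos2 were found by the root mean square difference of centred log2 normalized CPM over the 16 libraries, among 11808 genes. They were Icam1 (1.27), Tat (1.28), Steap4 (1.36), Gbp2 (1.41) and Cxcl11 (1.44), against a median of 4.16 over all genes. Of the members, Nox1 ranked 14, Duoxa2 24 and Duox2 69. For Duox2 the nearest were Tnfrsf1b (0.445), Nfkb2 (0.447), Parp14 (0.494), Atp10b (0.519) and Relb (0.550), against a median of 1.90, while Nox1 ranked 319 and Duoxa2 ranked 685. Duox2 and Duoxa2, although neighbours on the chromosome, were thus not among the closest pairs by this measure. The measure depends on the size of the changes as well as on their shape.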

How the data were processed

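Libraries of 16 samples of sorted mouse Paneth cells (C57BL/6J, small intestine) were analysed from 1 deposited table of raw read counts for 55414 Ensembl genes, with no normalization. Per the labels, a stranded mRNA kit was used. The submitters' processing notes name FastQC 0.12, STAR 2.7.10a, DESeq2 and the mm39 build. The methods of the study also give Salmon for quantification. Which program made the deposited counts, whether strand was used and how reads matching several genes were treated are not given in the sources used here. Overlapping and near-identical genes are therefore uncertain.

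Groups and replicate numbers came from the labels, which name the fourth group DEX+TNFS in the titles and DEX+TNF in the design text. Identifiers were matched to the GENCODE M39 annotation of GRCm39 (54749 of 55414), which also gave coordinates and canonical transcripts. Genes were filtered with filterByExpr, which left 11809, and a model with 1 mean per group was fitted to all libraries in edgeR 4.0.16 (R 4.3.3, quasi-likelihood, robust), with trimmed mean of M-values (TMM) scaling. An SE was taken as the absolute log2 fold change over the square root of the F statistic. Adjustment (Benjamini-Hochberg) ran over all genes tested, within each of 5 contrasts, with a threshold of 0.05. The procedure was tested on simulated data. Replicates were taken as separate mice, as the study's methods describe for its sorted samples. The closest pair, DEX+TNF replicates 1 and 2, differed by more than sampling noise (chi-square per degree of freedom 8.78). All other pairs within a group lay at 23.5 to 344. Preparations of a single mouse could also differ by more than sampling noise, so this value does not show separate mice. Each library was counted once. Floors of 3 counts cover counting error only, since the reads carry no molecular identifiers.

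The 9 genes, the list of 51 further pathway genes, the marker lists and the tests were chosen with earlier results of these data known. From the list, genes called in a pairwise comparison were named, at most 6 per comparison by size of change, and those at 0 in all libraries. The 5 genes nearest to Nos2 and to Duox2 were named by their likeness (prior count 2). Near-copies were sought with blastn (at least 75 bases at 97% identity). The alternatives changed the scaling (median-of-ratios, upper-quartile, or TMM without the Defa genes), the filter (none, or a mean of at least 5 CPM), the tool (DESeq2 1.42.0) or the model (only the groups compared, a replicate block, no robust option). Further ones were an adjusted p of 0.01, each library left out, and DEX+TNF replicates 3 and 4 left out together. Plain CPM for single libraries was added after the data were seen.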

Additional observations from a re-analysis of the deposited data

Results flagged for a closer look

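Within each group of 4, the gap between the highest or lowest library and its neighbour was set against the range of the group. Of 36 groups examined (9 genes in 4 groups), 6 had a library further off than Dixon's 95% limit. All 6 were replicate 4 of their group. Chance gives this in about 1 of 20 groups if they are independent and normally distributed. The 9 genes share the same libraries, so the 36 groups are not independent and the 6 cannot be set against that rate.

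In PBS+PBS, replicate 4 had the highest Arg2 (5.28 normalized CPM), Duoxa2 (8.67) and Noxo1 (60.04). That library had a TMM factor of 0.503, which raises its normalized values. In plain CPM it had 2.65 for Arg2 against 0.632 to 1.07 in the other 3 libraries, 4.36 for Duoxa2 against 0.267 to 2.03, and 30.2 for Noxo1 against 30.8 to 37.0. None of the 3 passed the limit in plain CPM, and the part of the scaling was not tested further. In DEX+PBS, replicate 4 had the lowest Ass1 (9.79 normalized CPM), which did not pass in plain CPM (gap over range 0.14), and the highest Nox1 (0.663), which did (0.929). In DEX+TNF, replicate 4 had the highest Arg2 (16.1 normalized CPM), which passed in plain CPM as well (0.945). In plain CPM the limit was also passed by Nox1 in PBS+PBS (gap over range 0.896), Sod1 in DEX+PBS (0.920) and Sod1 in DEX+TNF (0.843).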

How the results depend on the processing

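The rises of Nos2, Duox2, Duoxa2, Nox1 and Noxo1 in PBS+TNF against PBS+PBS were called in every alternative that tested them (26, and 25 for Nox1). In DEX+PBS against PBS+PBS and in DEX+TNF against PBS+TNF no member was called in any of them. Of 1150 single-gene values under alternatives, 41 changed sign, all of them uncalled in the reported analysis, 9 became called and 18 lost a call, all 18 for Nos2 in DEX+TNF against DEX+PBS. The causes were not tested.

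In DEX+TNF against DEX+PBS 1 member was called, and 0 at an adjusted p of 0.01, with upper-quartile factors, with no low-count filter, with only the groups compared or with a replicate block. DESeq2 called 2, single libraries left out gave 0 to 4 (4 without DEX+TNF replicate 3, 3 without replicate 4), and both left out together gave 4. Of the 51 further genes, 1 was called there, and 0 at an adjusted p of 0.01, with a mean of at least 5 CPM, with only the groups compared or with a replicate block. DESeq2 called 3, single libraries left out gave 0 to 4 and both left out gave 8. In DEX+TNF against PBS+TNF the list had 0 calls, 2 with DESeq2 and 0 to 1 with a library left out. In PBS+TNF against PBS+PBS it had 9, 3 at an adjusted p of 0.01, 14 with both libraries left out and 4 to 11 with single libraries left out (4 without PBS+PBS replicate 1 or 2, 5 without PBS+TNF replicate 1 or 4).

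Over all genes, PBS+TNF against PBS+PBS gave 1476 calls, of which 57.2% were higher, and 46.3% with upper-quartile factors, which moved the median log2 fold change from -0.03 to -0.15, and single libraries left out gave 916 (without PBS+PBS replicate 1) to 1698. In DEX+TNF against DEX+PBS there were 40 calls, 0 with the replicate block, 241 with DESeq2 and 1286 with both libraries left out, and single libraries left out gave 0 to 362 (362 without DEX+TNF replicate 3, 230 without replicate 4). In DEX+TNF against PBS+TNF there were also 40, 245 with DESeq2, 16 with the replicate block, 0 at an adjusted p of 0.01, with only the groups compared or with both libraries left out, and 0 to 102 with single libraries left out (0 without PBS+TNF replicate 1, 3 or 4 or DEX+TNF replicate 3 or 4, and 102 without DEX+TNF replicate 2).

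With DEX+TNF replicates 3 and 4 left out together, signs turned for Arg2 against DEX+PBS (-0.97) and in the interaction (-0.65), for Ass1 in the interaction (0.011), and for Sod1 against PBS+TNF (-0.27) and in the interaction (-0.20). The Sod2 interaction turned to 0.050 with upper-quartile factors, 0.0058 with factors without the Defa genes and 0.033 with a mean of at least 5 CPM. Leaving out single libraries turned signs within these ranges of log2 fold change. In PBS+TNF against PBS+PBS they were -0.65 to 0.84 for Arg2 and -0.20 to 0.0068 for Sod2. In DEX+PBS against PBS+PBS they were -0.079 to 0.37 for Duox2, -0.96 to 0.80 for Duoxa2, -2.89 to 0.11 for Nox1, -0.33 to 0.26 for Noxo1, -0.21 to 0.21 for Sod1 and -0.041 to 0.20 for Sod2. In DEX+TNF against DEX+PBS they were -0.56 to 1.30 for Arg2, -0.036 to 0.35 for Ass1, -0.21 to 0.021 for Sod1 and -0.17 to 0.018 for Sod2. In DEX+TNF against PBS+TNF Sod2 ran from -0.015 to 0.18. In the interaction the ranges were -0.23 to 1.62 for Arg2, -3.29 to 0.38 for Nox1, -0.068 to 0.34 for Sod1 and -0.11 to 0.13 for Sod2.

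Replicate numbers are shared across groups and were not taken to pair the samples, since the labels do not say what a number marks. Of same-numbered pairs, 12 of 24 correlated above 0.1, against 20 of 72 pairs of different numbers. The deviations of same-numbered libraries had a median correlation over genes of 0.115 (-0.365 to 0.504, 24 pairs), against -0.0615 for the 72 pairs of different numbers, and 9 of 16 libraries correlated best with their own number, a hint of pairing that comes from the data and not the design. With the replicate block Arg2 in PBS+TNF against PBS+PBS turned to 0.066, and Nos2 in DEX+TNF against DEX+PBS had a log2 fold change of 5.43 (adjusted p = 0.166 by edgeR). Depth limits Nox1, Arg2 and, without TNF, Nos2, which rest on 14 to 86 counts in their low groups.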

Other observations

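Levels per kilobase of canonical transcript gave further ratios between partners. The ratio of Nox1 to its organizer Noxo1 was 0.00566 to 0.0129 in the PBS+PBS libraries and 0.0759 to 0.303 in PBS+TNF, without overlap. In DEX+TNF it was 0.0741, 0.0407, 0 and 0.0213 in replicates 1 to 4. The ratio of Ass1 to Arg2 was 4.09 to 29.0 in PBS+PBS and 10.2 to 35.7 in PBS+TNF, and fell below 1 in a single library, DEX+TNF replicate 4 (0.541). The ratio of Sod2 to Sod1 lay between 0.274 and 0.712 in all 16 libraries. These ratios were not tested, and those with Noxo1, Sod1 or Sod2 share the uncertainty of these genes on the per-kilobase scale.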
